A study of Mus musculus with 18 samples.

Results

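Translational efficiency, the number of ribosome footprints on an mRNA relative to the amount of that mRNA, was compared between 2 mTOR inhibitors, Rapalink-1 and rapamycin. The comparison used 12 of the 18 libraries of the series, chosen by their labels: 3 footprint and 3 RNA libraries for each drug. All cells were of 1 line, GTML, from a mouse medulloblastoma model in which a human MYCN transgene acts in neural progenitors of the hindbrain, and the labels call its genotype Human MYCN overexpressed. Cells were grown in neurobasal medium with B27, EGF and bFGF and treated for 3 h with 50 nM Rapalink-1 or 5 nM rapamycin. The doses differed, so every difference below is between a drug at its dose and the other drug at another dose. The remaining 6 libraries, from DMSO controls of the same line, gave reference values only. All groups carried the transgene, and no group without it was analysed here.

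mTOR complex 1 promotes protein synthesis through the S6 kinases and by holding the repressors of the cap-binding protein eIF4E, the 4E-BPs, in an inactive form. Rapamycin binds mTOR outside its catalytic site and, per the series text, blocks the S6 kinase arm and leaves eIF4E signalling running. In Rapalink-1 a linker ties rapamycin to a compound that sits in the ATP pocket of mTOR, and both arms are blocked. The mRNAs best known to depend on mTOR are the TOP mRNAs, which begin with a C and an unbroken run of pyrimidines. They encode ribosomal proteins, elongation factors and a few other proteins, and the 4E-BPs and the RNA-binding protein LARP1 act on their translation.

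The sequences at annotated starts are shown for genes on which the results turn, because the start of the mRNA is where TOP mRNAs are defined. Each line gives 10 bases before and 20 bases from the start of a RefSeq transcript (build GRCm38.p6), 5′ to 3′ on the strand of the gene. Capitals mark an unbroken run of 5 or more C or T bases counted from the start. The first 6 genes have such a run and the last 4 do not. The runs of Rpl27a and Eef1a1 begin with T at these starts, not with the C of TOP mRNAs.
Rpl27a, chr7:109519185-109519214, plus strand: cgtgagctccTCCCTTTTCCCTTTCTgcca
Rps18, chr17:33955646-33955675, minus strand: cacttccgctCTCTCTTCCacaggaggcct
Rps27, chr3:90213629-90213658, minus strand: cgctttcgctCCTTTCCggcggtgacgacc
Rack1, chr11:48800350-48800379, plus strand: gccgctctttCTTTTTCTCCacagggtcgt
Eef1a1, chr9:78481705-78481734, minus strand: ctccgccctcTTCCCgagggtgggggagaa
Atp5g2, chr15:102671028-102671057, minus strand: gcgcccccgcCCCTCTCTgtcttctctgcc
Eef2, chr10:81176621-81176650, plus strand: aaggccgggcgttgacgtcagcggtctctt
Odc1, chr12:17544863-17544892, plus strand: cctcccccgcgcctcccggccggaaccgat
Polr2a, chr11:69758614-69758643, minus strand: ttctctcctcagaagcgccgagagcgcgac
Ep300, chr15:81586204-81586233, plus strand: gtggcgatgagaaggaggaggacagcgccg

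The 12 libraries held 7794216 to 13300292 reads on genes, and 11552 of 15307 features had enough reads to be tested. Nothing in the labels says that replicates came from separate cultures, so p-values measure the spread between these samples, which may be technical. The footprint libraries of Rapalink-1 and DMSO are named RP-B in the labels and those of rapamycin RP. In both assays the rapamycin libraries also carry a separate block of library numbers. What these names stand for is not stated, and they cannot be told apart from the drug. This holds also where rapamycin is set against DMSO. Of 12 markers of hindbrain progenitors and the granule neuron lineage, 9 had a row, among them Zic1, Zic2, Neurod1, Pax6 and Mycn. Atoh1, Barhl1 and Sox2 were not analysed here. Among markers of other cell types, 1 of 9 for oligodendrocytes (Cnp), 0 of 4 for astrocytes, 2 of 11 for microglia and blood (Itgam and Hbb-bs) and 1 of 11 for vessels and fibroblasts (Acta2) had a row. All 9787 features with a symbol were tested, and 5520 features carry no symbol. Gapdh has no row of its name either, so a missing row does not show that a gene was not expressed.

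Efficiency differed between the drugs over much of the transcriptome. It was higher under Rapalink-1 for 2993 genes (25.9% of those tested) and lower for 2731 (23.6%), at an adjusted p under 0.05. The median difference over all genes was 0.045 on the log2 scale. Differences of at least 1, a doubling or more, were found for 673 genes with higher efficiency (5.83%) and for 513 with lower efficiency (4.44%). These directions are relative to the bulk of genes, since no added RNA standard is recorded and TMM scaling centres each library. Under library totals in place of TMM factors the median of all genes moved to 0.371, and 5369 genes were higher (46.5%) and 1254 lower (10.9%), so that 81.1% of calls were higher in place of 52.3%. Values are given below with TMM factors, and the direction of a list under library totals stands beside it. The counts of a list are to be read against these shares of all genes. The genes tested include features without a symbol, which no list can hold. Among 7862 genes with a symbol and a start sequence, 28.9% were higher and 26.7% lower with TMM factors.

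The footprint and RNA parts of these differences were not alike in the 2 directions. Of the 2731 genes with lower efficiency, 1278 had fewer footprints with no call on RNA, 658 had fewer footprints and more RNA, and 367 had more RNA with no call on footprints. Of the 2993 genes with higher efficiency, 1035 had more footprints with no call on RNA, 888 had more footprints and less RNA, and 731 had less RNA with no call on footprints. Footprints themselves were higher for 3045 genes (26.4%) and lower for 3298 (28.5%), and RNA was higher for 1868 (16.2%) and lower for 2897 (25.1%), or 41.2% in either direction. In the plot of footprint against RNA differences, ribosomal proteins lie far below the diagonal near an RNA difference of 0. Enzymes of chromatin lie above it, mostly left of 0.

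**Figure D1:**
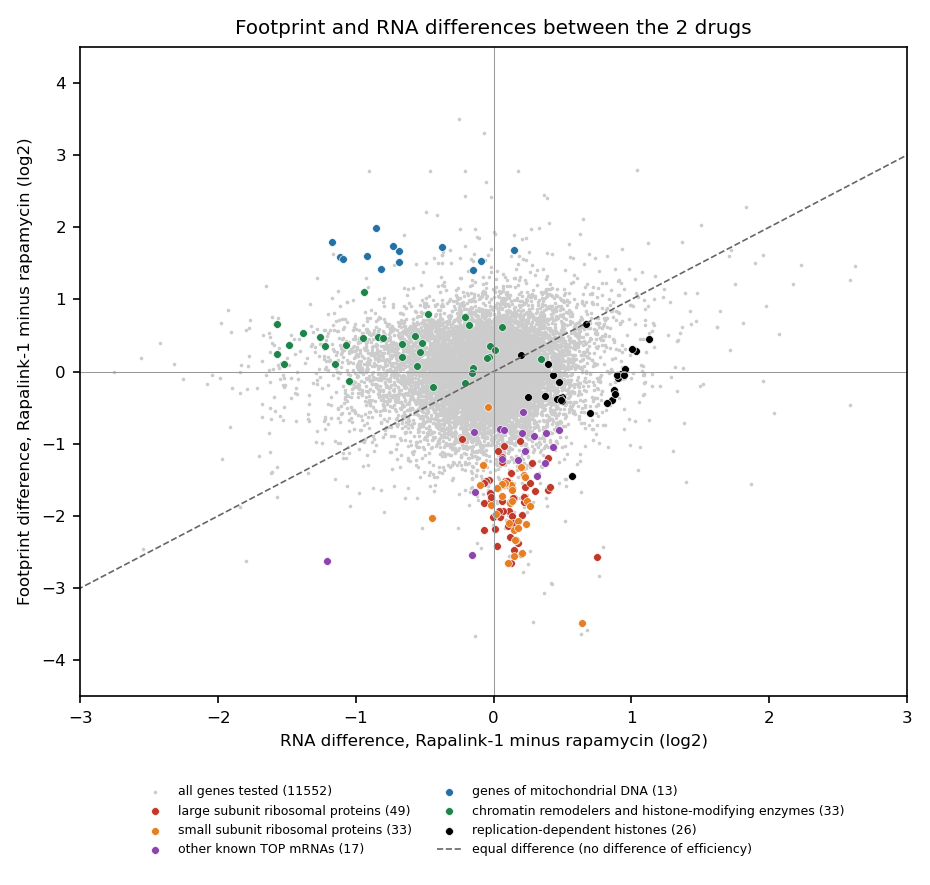
Difference in footprints (vertical axis, log2) against difference in RNA (horizontal axis, log2), Rapalink-1 minus rapamycin, for each of 11552 genes, with 6 lists in colour; 3 genes lie outside the axes. Points under the dashed diagonal have lower efficiency under Rapalink-1, and most ribosomal proteins sit between -1 and -3 on the vertical axis.

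Ribosomal proteins, the structural parts of the ribosome, had the lowest median efficiency differences of the 31 lists. Of 49 genes of the large subunit, 48 were lower and 0 higher, with a median of -1.88. Of 33 genes of the small subunit, all 33 were lower, with a median of -1.93. Under library totals the counts were 48 and 32 lower and 0 higher, and the medians -1.56 and -1.60. Compared with DMSO, the median efficiency of the large subunit list was -2.24 under Rapalink-1 and -0.34 under rapamycin, and that of the small subunit list -2.32 and -0.39. Those comparisons share the DMSO libraries. RNA of these genes differed by less, with medians of 0.11 and 0.13, but mostly in 1 direction. It was higher for 26 of 49 and 21 of 33 genes, against 16.2% of all genes. Lower RNA was called for 1 and 2, against 25.1% of all genes.

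Rpl27a, a protein of the large subunit, shows the pattern by library, in CPM, the reads of a gene relative to the scaled size of its library. Its footprints were at 74.6, 70.2 and 70.1 CPM with Rapalink-1 and at 470, 456 and 433 CPM with rapamycin. Its RNA was at 927, 906 and 925 CPM with Rapalink-1 and at 848, 862 and 821 CPM with rapamycin. The footprint groups were far apart, and the RNA groups lay close together with Rapalink-1 slightly above. The efficiency of Rpl27a differed by -2.78 ± 0.062 (log2 difference ± standard error, here and below; adjusted p = 3.5e-42).

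Rps18, a protein of the small subunit, had 159, 160 and 149 CPM of footprints with Rapalink-1 and 929, 912 and 849 CPM with rapamycin. The groups did not overlap, and its efficiency differed by -2.73 ± 0.059 (adjusted p = 1.3e-42). Rps27 had 49.2, 51.6 and 50.0 CPM of footprints with Rapalink-1 against 312, 322 and 316 CPM, and its efficiency differed by -2.76 ± 0.064. Its counts lie close to those of the copy Rps27rt in every library, so the pair may be 1 signal. Mouse ribosomal protein genes have many near-identical copies, and how reads between copies were counted is not given in the sources used here. Rps2 had the lowest value of the list, -4.12 ± 0.18, but on few footprints: 2.21, 1.17 and 1.21 CPM with Rapalink-1 and 19.4, 18.9 and 15.8 CPM with rapamycin.

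The members with the smallest differences, picked after their values were seen, were Rps27l and Rpl36al, both paralogs of another ribosomal protein gene, and Rps29. Rps27l differed by -0.46 ± 0.069 and fell short of the threshold under library totals (-0.13). Rpl36al differed by -0.71 ± 0.066 and Rps29 by -1.23 ± 0.073. The member without a call, Rpl29, had 0 CPM of footprints in all 3 Rapalink-1 libraries and 0.0821, 0.0920 and 0 CPM with rapamycin, which is too few reads for a fold.

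**Figure D2:**
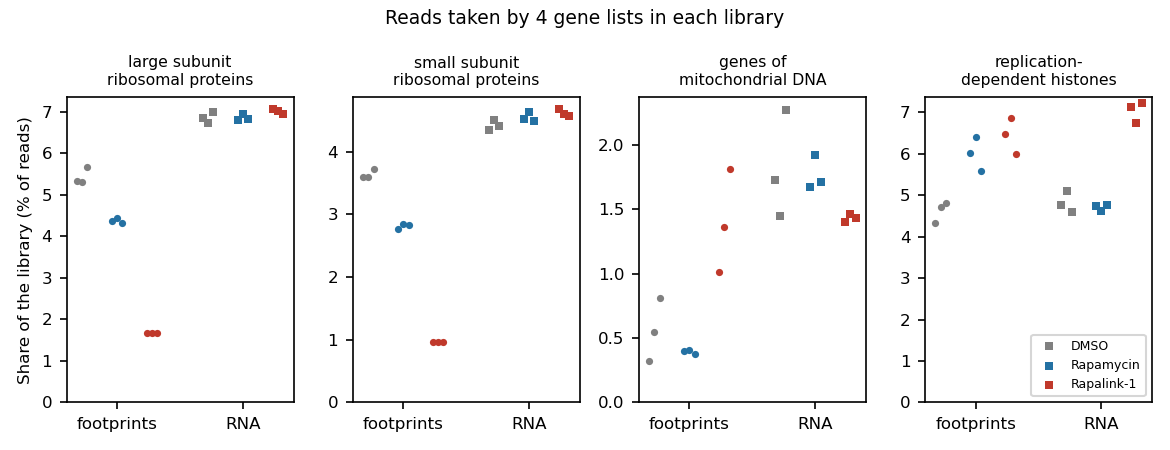
Share of all reads of a library (vertical axis, %, starting at 0) taken by 4 gene lists in footprint libraries (circles) and RNA libraries (squares), 1 point per library, for DMSO, rapamycin and Rapalink-1. Large subunit ribosomal proteins took 1.66 to 1.67% of footprints with Rapalink-1 and 4.32 to 4.44% with rapamycin, while their RNA shares lie between 6.72 and 7.07% in all 9 RNA libraries.

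The share of footprints spent on ribosomal proteins followed the same order in every library. Large subunit genes took 1.66, 1.67 and 1.67% of footprints with Rapalink-1, 4.37, 4.44 and 4.32% with rapamycin and 5.32, 5.31 and 5.67% with DMSO. Small subunit genes took 0.960, 0.964 and 0.967% with Rapalink-1 and 2.76, 2.84 and 2.83% with rapamycin. The drugs did not overlap in footprints, and the two-sided exact permutation test gave p = 0.1 for each, the smallest that 3 against 3 allows. In RNA the shares of the 2 drugs overlapped (exact permutation p = 0.2 and 0.3).

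Elongation factors, which carry the ribosome along the mRNA, included Eef1a1 and Eef2, which had the lowest efficiency differences of the named genes after Rps2. Of 8 tested, 7 were lower and 0 higher, with a median of -1.34. Under library totals 5 were lower and 1 higher, with a median of -1.02. Eef2, the translocation factor, had 398, 402 and 400 CPM of footprints with Rapalink-1 and 3108, 3074 and 2996 CPM with rapamycin. RNA levels were 5266, 5207 and 5400 CPM with Rapalink-1 and at 3941, 3953 and 4013 CPM with rapamycin. Footprints and RNA thus lay apart in opposite directions, and the efficiency of Eef2 differed by -3.35 ± 0.052 (adjusted p = 2.6e-50).

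Eef1a1, which brings aminoacyl-tRNA to the ribosome, had 1420, 1374 and 1470 CPM of footprints with Rapalink-1 and 10970, 10950 and 11060 CPM with rapamycin. Its efficiency differed by -3.38 ± 0.049 (adjusted p = 1.4e-51). Relative to DMSO the efficiency of Eef1a1 was -4.13 with Rapalink-1 and -0.75 with rapamycin, and that of Eef2 -4.24 and -0.89. Eef1b2, a nucleotide exchange factor of the same complex, differed by -2.12 ± 0.058. The member without a call, Eif5a, which helps ribosomes through stretches of proline, was at 0.10 ± 0.059 (adjusted p = 0.14), and 0.43 under library totals, where it passed the threshold.

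All 17 tested members of the list of other known TOP mRNAs had lower efficiency, also under library totals, with medians of -1.29 and -0.96. Tpt1, a small conserved protein tied to growth, had 205, 202 and 198 CPM of footprints with Rapalink-1 and 1131, 1233 and 1172 CPM with rapamycin, and its efficiency differed by -2.39 ± 0.058. Rack1, a scaffold on the small subunit, differed by -1.75 ± 0.055. Vim, an intermediate filament protein, differed by -1.65 ± 0.065 and Npm1, a nucleolar chaperone, by -1.48 ± 0.054. Footprints of all 17 genes were lower, against 28.5% of all genes, with a median of -1.05. RNA was higher for 10 and lower for 4, against 16.2% and 25.1% of all genes.

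Runs of pyrimidines were counted with C or T as the first base, which is wider than the definition of TOP mRNAs. Where a gene had several annotated starts its longest run was taken, and 6276 of 7862 genes had 1 start. A run of 5 or more pyrimidines at the annotated start was found in 396 of 7862 genes with a start sequence (5.04%), on the sense strand. Their median efficiency difference was -0.043, against 0.031 for all 7862, and 32.6% of them were lower against 26.7% of all. Outside the 4 lists of the translation machinery, the 375 genes with a run had a median of 0.026, with 28.8% lower and 29.1% higher, near the values of all genes (26.7% and 28.9%). Within those lists a start sequence was at hand for 80 of 107 tested genes (74.8%). That is fewer than the 80% asked of such a check here, so values by run within those lists are not reported here. Annotated starts can miss the true start of an mRNA by some bases, and a missing run says only that the letters are not at that position.

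**Figure D3:**
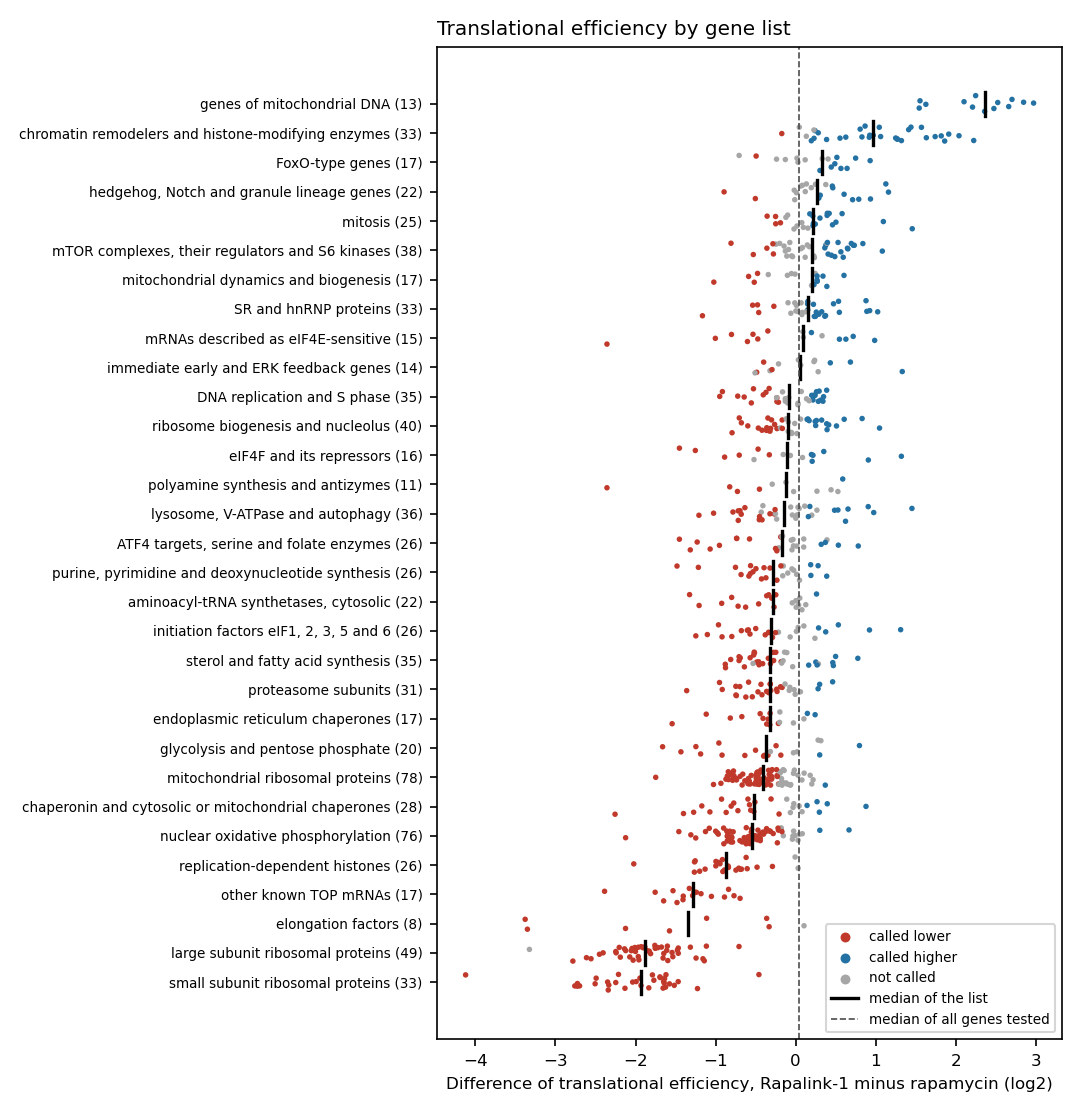
Difference in translational efficiency (horizontal axis, log2, Rapalink-1 minus rapamycin) for each tested gene of 31 lists, with the number tested in brackets; red and blue points passed an adjusted p under 0.05, black bars are list medians and the dashed line is the median of all genes (0.045). The 4 lists of ribosomal proteins, elongation factors and TOP mRNAs lie lowest, and the genes of mitochondrial DNA (median 2.36) highest.

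Initiation factors outside the TOP list did not share 1 direction. The eIF3 subunits Eif3e, Eif3f, Eif3h, Eif3k and Eif3l were counted with the other known TOP mRNAs, all of them lower, and not here. Of 26 genes of eIF1, 2, 3, 5 and 6, 15 were lower and 5 higher, with a median of -0.31 that turned to 0.016 under library totals, with 10 in each direction. Eif3i, Eif3g and Eif3m, subunits of the scaffold eIF3, were lower, at -1.25 ± 0.060, -0.96 ± 0.064 and -0.92 ± 0.060. Eif5b, which joins the ribosomal subunits, was higher by 1.31 ± 0.078. Its footprints were at 316, 316 and 324 CPM against 254, 248 and 278 CPM, and its RNA at 42.2, 44.8 and 50.2 CPM against 96.9, 92.0 and 88.8 CPM. Most of the difference of Eif5b thus lay in its RNA, which was lower under Rapalink-1.

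The cap-binding complex eIF4F and its repressors were also split, with 6 higher and 6 lower of 16. Eif4b, lower and counted with the other known TOP mRNAs, is not among them. The median of -0.11 turned to 0.22 under library totals, with 7 higher and 5 lower, and to 0.033 without replicate 2 of rapamycin. Eif4ebp1, a repressor of eIF4E that mTOR holds inactive, had 24.2, 22.2 and 22.3 CPM of footprints with Rapalink-1 and 79.4, 72.7 and 72.7 CPM with rapamycin. Its RNA was at 52.2, 51.5 and 55.6 CPM with Rapalink-1 and at 64.1, 65.0 and 60.4 CPM with rapamycin. Both were lower, footprints by more, and its efficiency differed by -1.45 ± 0.10 (adjusted p = 2.3e-18). The related repressor Eif4ebp2 was at -0.52 ± 0.26 without a call (adjusted p = 0.088), and without replicate 3 of Rapalink-1 it was at -0.71 and passed. Eif4g3 and Eif4g2, scaffold proteins of initiation, were higher by 1.32 ± 0.092 and 0.91 ± 0.057, the helicase Eif4a2 was lower, at -0.89 ± 0.066, and Eif4e itself was higher by 0.21 ± 0.065.

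Among 38 genes of the mTOR complexes, their regulators and S6 kinases, 16 were higher and 5 lower, with a median of 0.20 (0.53 under library totals, with 23 higher and 1 lower). Higher calls made up 42.1% of the list against 25.9% of all genes, and 60.5% against 46.5% under library totals. Mtor, the kinase both drugs bind, was at -0.04 ± 0.099 (adjusted p = 0.78), and at 0.29 under library totals. Its footprints were at 46.9, 43.9 and 50.8 CPM against 54.7, 54.5 and 57.6 CPM. Rptor, the subunit that defines complex 1, was higher by 1.08 ± 0.11 and Mapkap1, of complex 2, by 0.59 ± 0.10. Fnip1, a partner of folliculin at the lysosome, was higher by 0.73 ± 0.097 with more RNA as well (0.36 ± 0.067). Larp1 was higher by 0.41 ± 0.077, through RNA that was lower, at -0.57 ± 0.057 and not through footprints (-0.17 ± 0.052). The S6 kinase Rps6kb1 was higher by 0.53 ± 0.10, Eef2k, which inhibits Eef2, by 0.40 ± 0.10, and Pdcd4, an inhibitor of eIF4A, by 0.35 ± 0.080.

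Among 15 tested mRNAs described as sensitive to eIF4E, 7 were lower and 5 higher, with a median of 0.090, which was -0.047 without replicate 2 of rapamycin and 0.42 under library totals (5 lower, 8 higher). The list therefore showed no single direction. Odc1, which makes putrescine from ornithine, was the lowest: 75.7, 70.1 and 76.5 CPM of footprints with Rapalink-1 against 402, 409 and 405 CPM with rapamycin. The RNA was at 1060, 1020 and 1082 CPM against 1123, 1124 and 1125 CPM. The efficiency of Odc1 differed by -2.36 ± 0.061 (adjusted p = 2.3e-39), and relative to DMSO it was -2.60 with Rapalink-1 and -0.24 with rapamycin. The survival factor Mcl1 was lower, at -1.003 ± 0.083 and the cyclin Ccnd1 at -0.60 ± 0.17. Ccnd1 did not pass under library totals (-0.28) or without replicate 3 of Rapalink-1 (-0.41). Hif1a, of the hypoxia response, was higher by 0.63 ± 0.068.

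Mycn, the mouse gene that matches the transgene, had 899, 916 and 915 CPM of footprints with Rapalink-1 and 674, 717 and 693 CPM with rapamycin. Its RNA stood at 764, 787 and 843 CPM against 698, 700 and 698 CPM. Footprints and RNA were both higher with Rapalink-1 and did not overlap, and efficiency differed by 0.20 ± 0.057 (adjusted p = 0.0029). Whether reads of the human transgene were counted on the mouse gene is not given in the sources used here. Of 22 genes of hedgehog, Notch and granule lineage, 10 were higher and 2 lower, with a median of 0.27 (0.60 under library totals, 16 higher and 2 lower). Ptch1, the hedgehog receptor, was higher by 1.13 ± 0.14 and its effector Gli3 by 1.16 ± 0.17. The lineage factor Neurod1 was higher by 0.46 ± 0.068 and the Notch-linked gene Hes6 lower, at -0.50 ± 0.072.

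**Figure D4:**
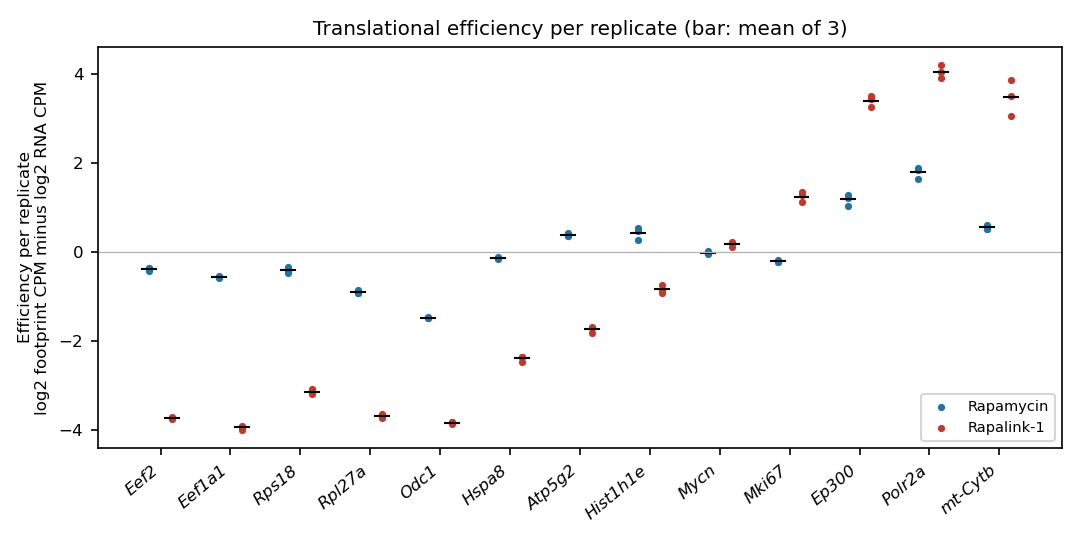
Efficiency in each pair of a footprint and an RNA library with the same drug and replicate number (vertical axis, log2 footprint CPM minus log2 RNA CPM) for 13 genes, 3 points per drug and a bar at their mean; rapamycin is blue and Rapalink-1 red. Points of the 2 drugs do not overlap for any of the 13 genes, and Mycn shows the smallest gap (0.12 to 0.23 against -0.05 to 0.03). Among all 11552 genes tested, 6367 (55.1%) had no overlap, and genes named for the largest differences had to have none.

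Ribosome biogenesis genes of the nucleolus were mixed, with 17 lower and 14 higher of 40 and a median of -0.091 that turned to 0.24 under library totals (4 lower, 23 higher). Ncl, a nucleolar RNA-binding protein, was higher by 1.05 ± 0.065, through RNA of 535, 595 and 653 CPM with Rapalink-1 against 1134, 1138 and 1097 CPM with rapamycin. Its footprints differed by 0.13 ± 0.045. Pes1, needed for the large subunit, was lower, at -0.68 ± 0.060. Of 22 cytosolic aminoacyl-tRNA synthetase genes, 13 were lower and 1, Yars, higher, with a median of -0.28 that turned to 0.046 under library totals (6 lower, 9 higher). Qars was the lowest named at -1.32 ± 0.074, and Aimp1, a scaffold of the synthetase complex, was at -1.21 ± 0.077.

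Nuclear genes of oxidative phosphorylation and mitochondrial ribosomal proteins were mostly lower in efficiency, and the genes of mitochondrial DNA were higher. Of 76 nuclear genes of oxidative phosphorylation, 65 were lower and 2 higher (Ndufs1 and Atp5j), with a median of -0.55. Under library totals 43 were lower and 11 higher, with a median of -0.22. Atp5g2, a ring subunit of ATP synthase, had 113, 115 and 121 CPM of footprints with Rapalink-1 and 408, 393 and 366 CPM with rapamycin, and its efficiency differed by -2.12 ± 0.066. Its sister gene Atp5g1 differed by -1.31 ± 0.067, and the catalytic core subunits Atp5c1 and Atp5b by -1.25 ± 0.058 and -0.80 ± 0.051. Relative to DMSO the list median was -0.35 with Rapalink-1 and 0.16 with rapamycin.

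Of 78 mitochondrial ribosomal proteins, which translate the mRNAs of mitochondrial DNA, 55 were lower and 1, Mrpl3, higher. Their median was -0.41, and -0.083 under library totals with 25 lower and 12 higher. Mrps24 was lower, at -1.75 ± 0.11 and Mrpl38 at -1.03 ± 0.082. Genes of mitochondrial dynamics and biogenesis were higher for 7 and lower for 4 of 17, with a median of 0.20 (0.52 under library totals, 11 higher and 2 lower). Their share of lower calls, 23.5%, was near that of all genes (23.6%). Higher calls made up 41.2% against 25.9% of all genes, and 64.7% against 46.5% under library totals.

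All 13 protein genes of mitochondrial DNA, whose mRNAs are read by the ribosomes of mitochondria, had higher efficiency, with a median of 2.36 (2.69 under library totals), against 25.9% of all genes. mt-Cytb, a subunit of complex III at MT:14145-15288, had 1443, 1968 and 2640 CPM of footprints with Rapalink-1 and 575, 605 and 555 CPM with rapamycin. RNA was at 172, 172 and 179 CPM with Rapalink-1 and at 398, 420 and 361 CPM with rapamycin. The efficiency of mt-Cytb differed by 2.97 ± 0.27 (adjusted p = 1.6e-05), and that of mt-Nd4, of complex I, by 2.66 ± 0.25. The 3 Rapalink-1 libraries were far from each other: the list took 1.01, 1.36 and 1.81% of their footprints. It took 0.396, 0.405 and 0.373% with rapamycin and 0.321, 0.548 and 0.814% with DMSO, so replicates of a condition differed by up to 2.5 times. Footprint shares of the 2 drugs did not overlap (exact permutation p = 0.1, the smallest possible).

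Of 20 genes of glycolysis and the pentose phosphate path, 13 were lower and 2 higher, with a median of -0.37, and -0.041 under library totals with 8 lower and 4 higher. Tkt, of the pentose phosphate path, had 419, 433 and 423 CPM of footprints with Rapalink-1 and 812, 811 and 773 CPM with rapamycin. Its RNA was higher, at 1019, 1023 and 1021 CPM against 704, 717 and 711 CPM, and its efficiency differed by -1.43 ± 0.055. Pgls, of the same path, differed by -1.66 ± 0.081, Gpi1 by -1.25 ± 0.063 and Aldoa by -1.19 ± 0.060.

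Several biosynthetic lists had more lower than higher calls, and their medians changed sign under library totals. Of 35 sterol and fatty acid genes, 21 were lower and 7 higher (median -0.32, and 0.013 with 10 in each direction). Scd2, a desaturase, was higher by 0.78 ± 0.056 with RNA lower, at -0.72 ± 0.041. Fads1, another desaturase, was lower, at -0.88 ± 0.086. Of 26 genes of nucleotide synthesis, 15 were lower and 4 higher (median -0.28, and 0.051 with 9 lower and 10 higher). Nme2, a nucleoside diphosphate kinase, was lower, at -1.48 ± 0.061 and Impdh2, of guanine nucleotide synthesis, at -1.22 ± 0.057.

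Of 26 ATF4 targets with serine and folate enzymes, 11 were lower and 4 higher (median -0.17, and 0.16 under library totals with 6 lower and 11 higher). Mthfd2, of mitochondrial folate metabolism, was lower, at -1.32 ± 0.071 and Phgdh, of serine synthesis, at -1.07 ± 0.058. Atf4 itself was at -0.21 ± 0.098 (adjusted p = 0.071). It was at 0.12 under library totals and passed the threshold without replicate 2 of either drug (-0.27 and -0.25). Of 11 polyamine genes, 4 were lower and 1 higher. Their median of -0.12 was 0.21 under library totals (3 lower, 5 higher) and 0.0040 without replicate 3 of Rapalink-1. The spermidine synthase Srm was lower, at -0.82 ± 0.066 beside Odc1, and Azin1, which protects Odc1 from its antizymes, was higher by 0.59 ± 0.078.

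Chaperones were lower for 17 and higher for 5 of 28 tested, with a median of -0.52 (-0.19 under library totals, 14 lower and 9 higher). Hspa8, the constitutive chaperone of the Hsp70 family at chr9:40801276-40805202, had 875, 831 and 860 CPM of footprints with Rapalink-1 and 3148, 3037 and 3169 CPM with rapamycin. Its RNA was at 4443, 4581 and 4388 CPM against 3454, 3387 and 3391 CPM. The efficiency of Hspa8 differed by -2.26 ± 0.052 (adjusted p = 1.6e-41), a difference near those of ribosomal proteins. Hsp90ab1 was lower, at -1.27 ± 0.051 and the chaperonin subunits Cct2 and Cct4 at -1.40 ± 0.055 and -1.17 ± 0.058.

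Chaperones of the endoplasmic reticulum were lower for 11 and higher for 2 of 17, with a median of -0.32 that was 0.0050 under library totals (4 lower, 3 higher). P4hb, a disulfide isomerase, was lower, at -1.54 ± 0.058. Of 31 proteasome subunits, 22 were lower and 3 higher, with a median of -0.32 that was 0.0090 under library totals with 11 in each direction. Psmd4, a ubiquitin receptor of the proteasome, was lower, at -1.36 ± 0.064. Of 36 genes of lysosome and autophagy, 14 were lower and 9 higher (median -0.15, and 0.18 under library totals with 8 lower and 17 higher). These are 38.9% lower against 23.6% of all genes and 25.0% higher against 25.9%, so the share of higher calls was near that of all genes. Lamp1, a lysosomal membrane protein, was lower, at -1.21 ± 0.060. The autophagy kinase Ulk1 was higher by 1.45 ± 0.21 on low RNA (3.04, 3.56 and 2.60 CPM against 10.1, 9.29 and 7.71 CPM) with no call on footprints.

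Replication-dependent histones had lower efficiency and more RNA under Rapalink-1 than under rapamycin. Of 26 tested, 24 were lower in efficiency and 0 higher, with a median of -0.87 (-0.54 under library totals, 22 lower and 2 higher). Their RNA was higher for all 26, against 16.2% of all genes, with a median of 0.68. Footprints were higher for 6 and lower for 13, against 26.4% and 28.5% of all genes. How reads that match several genes were counted is not given in the sources used here, so the 26 may not be separate signals. Hist1h1d, a linker histone, had RNA at 3922, 3749 and 3834 CPM with Rapalink-1 and at 1789, 1726 and 1754 CPM with rapamycin. Its footprints were also higher, at 2892, 3051 and 2886 CPM against 2201, 2335 and 1928 CPM, and its efficiency was lower, at -0.68 ± 0.062. Hist1h1e, another linker histone, had fewer footprints (-0.57 ± 0.050) and more RNA (0.70 ± 0.050). Histone RNA took 7.14, 6.74 and 7.22% of RNA reads with Rapalink-1, 4.74, 4.61 and 4.76% with rapamycin and 4.76, 5.11 and 4.59% with DMSO. In RNA, Rapalink-1 stood above both other conditions. Histone footprints took 6.47, 6.86 and 6.0% with Rapalink-1, 6.03, 6.41 and 5.59% with rapamycin and 4.34, 4.71 and 4.82% with DMSO, so here both drugs stood above DMSO and overlapped each other. Relative to DMSO the median efficiency of the list was -0.48 with Rapalink-1 and 0.47 with rapamycin, of nearly equal size and opposite sign.

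Genes of DNA replication were split, 12 higher and 12 lower of 35, with a median of -0.086 that was 0.24 under library totals (19 higher, 6 lower). Mitosis genes were higher for 14 and lower for 4 of 25, with a median of 0.21 (0.54 under library totals, 22 higher and 0 lower). Mki67, which coats mitotic chromosomes, had 619, 632 and 605 CPM of footprints with Rapalink-1 and 385, 345 and 334 CPM with rapamycin. RNA levels were 243, 258 and 278 CPM against 436, 403 and 388 CPM. The 2 measures lay apart in opposite directions, and efficiency differed by 1.46 ± 0.070 (adjusted p = 8.0e-22).

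Chromatin remodelers and histone-modifying enzymes had higher efficiency. Of 33 tested, 29 were higher and 1, Dnmt1, lower, with a median of 0.97, against 25.9% of all genes higher. Under library totals all 33 were higher, with a median of 1.30. RNA of the list was lower for 27, against 25.1% of all genes, and footprints higher for 25, against 26.4%. Ep300, a histone acetyltransferase, had 122, 127 and 118 CPM of footprints with Rapalink-1 and 85.4, 64.9 and 81.7 CPM with rapamycin. Its RNA lay at 10.4, 11.4 and 12.1 CPM with Rapalink-1 and at 34.6, 31.6 and 34.7 CPM with rapamycin. RNA made up most of the difference in the efficiency of Ep300, 2.23 ± 0.12 (adjusted p = 5.9e-22). The paralog Crebbp was higher by 1.91 ± 0.10, and the methyltransferase Setd2 and the remodeler Chd8 by 1.27 ± 0.080 and 1.32 ± 0.084. Dnmt1, at -0.17 ± 0.058, was 0.16 under library totals and did not pass without replicate 2 of rapamycin (-0.12).

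Polr2a, the largest subunit of RNA polymerase II and in no list, belonged to the 12 highest values by the naming rule. It had 408, 411 and 412 CPM of footprints with Rapalink-1 and 233, 209 and 200 CPM with rapamycin. The RNA stood at 24.4, 22.1 and 27.0 CPM against 73.7, 56.4 and 55.8 CPM, and its efficiency differed by 2.27 ± 0.13 (adjusted p = 2.2e-10).

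For these genes the values against DMSO had opposite signs for the 2 drugs. Polr2a was at 1.04 with Rapalink-1 and at -1.24 with rapamycin, Ep300 at 1.26 and -0.96, and the chromatin list at medians of 0.49 and -0.57. The chromatin list took 0.330, 0.349 and 0.341% of RNA reads with Rapalink-1, 0.352, 0.334 and 0.350% with DMSO and 0.427, 0.407 and 0.420% with rapamycin. The RNA share of rapamycin thus lay above the other conditions, and those of Rapalink-1 and DMSO overlapped. The rapamycin libraries also carry a separate block of library numbers, so drug and block cannot be told apart in these values. In footprints the list took 0.604, 0.590 and 0.603% with Rapalink-1, against 0.433, 0.410 and 0.433% with rapamycin and 0.457, 0.438 and 0.405% with DMSO. There it was Rapalink-1 that stood apart. In shares of reads the difference thus had an RNA part seen in the rapamycin libraries and a footprint part seen in the Rapalink-1 libraries. These shares carry no TMM factors, which were 1.097 to 1.111 for Rapalink-1 footprints and 0.9365 to 0.9562 for rapamycin footprints. With TMM factors the median difference of the list between the drugs was 0.36 in footprints and -0.57 in RNA.

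Splicing factors of the SR and hnRNP families were higher for 18 and lower for 5 of 33, with a median of 0.15 (0.48 under library totals, 28 higher and 2 lower). Hnrnpa2b1 was higher by 0.89 ± 0.061. Ybx1, a cold shock domain protein, was lower, at -1.16 ± 0.054, through footprints (-1.22 ± 0.039) and with no call on RNA. FoxO-type genes, many of them raised when Akt is off, were higher for 8 and lower for 1 of 17, with a median of 0.33 (0.66 under library totals, 12 higher and 0 lower). Fbxo32, a ubiquitin ligase of that response, had 62.2, 58.3 and 61.1 CPM of footprints with Rapalink-1 and 20.8, 18.1 and 19.9 CPM with rapamycin. Its RNA was also higher, by 0.69 ± 0.11, and its efficiency by 0.93 ± 0.14. Immediate early and ERK feedback genes were higher for 3 and lower for 3 of 14, with a median of 0.049 (0.38 under library totals, 8 higher and 0 lower). That is 21.4% in each direction, near the 25.9% and 23.6% of all genes. The feedback inhibitor Spred2 was higher by 1.33 ± 0.16.

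Length of the gene locus, a property that no list was built on, ran with the difference. Among 9716 of 9787 named genes with a RefSeq locus (99.3%), cut into 5 bins of equal size, the median efficiency difference was -0.27 in the shortest bin, then -0.077, 0.0080 and 0.14, and 0.38 in the longest. Lower efficiency was called for 45.1% of genes in the shortest bin and 10.9% in the longest, and higher efficiency for 11.1% and 50.6%. Footprints went from a median of -0.25 to 0.20 over the bins and RNA from 0.024 to -0.17. Without the 4 lists of the translation machinery and without mitochondrial DNA, the outer medians were -0.25 and 0.38. The 33 chromatin genes have a median locus of 80.5 kb, the large and small subunit ribosomal proteins 3.16 and 2.94 kb, and all named genes 24.4 kb. The part of locus length in these differences was not tested.

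**Figure D5:**
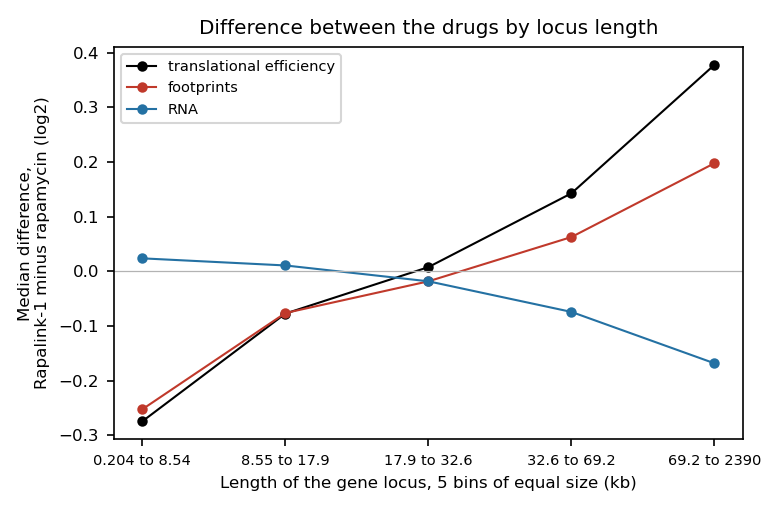
Median difference between the drugs (vertical axis, log2, Rapalink-1 minus rapamycin) in efficiency, footprints and RNA for 5 bins of equal size by length of the gene locus (horizontal axis, kb). Efficiency goes from -0.27 in the shortest bin to 0.38 in the longest, with footprints and RNA moving in opposite directions.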

How the data were processed

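Ribosome footprints and total RNA of mouse GTML cells were sequenced, with both library types made with the ARTseq kit from a lysate of which a small aliquot was kept for total RNA, per the labels' protocols. The read count table, as deposited by the authors, gives whole-number counts per transcript without normalization. The build was GRCm38 (mm10) per the submitters' processing notes, while no source names an aligner, a counter or the treatment of reads that match several genes (not given in the sources used here). Names and identifiers of another deposited table by the authors joined transcripts to genes, and columns of other type in it were not used.

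The 27382 transcript rows (6378 of them 0 in all libraries) were collapsed to 15307 features, 9787 with a symbol. For 62 genes whose rows differed, the row of highest total stood for the gene. Genes with different identifiers shared 19 features. Unnamed features held 1.8 to 2.1% of reads. Genes passing filterByExpr (minimum count 10, minimum total 15) in the 12 libraries were fitted as 4 groups with TMM factors in edgeR 4.0.16 (glmQLFit, robust, and glmQLFTest; R 4.3.3, limma 3.58.1). The efficiency difference was the footprint difference minus the RNA difference, with Benjamini-Hochberg adjustment over all 11552 genes and a threshold of 0.05. Standard errors came from the fold change and its F value. Efficiencies per replicate joined the footprint and RNA library of the same drug and number, on log2 CPM with a prior count of 2. The labels do not state which footprint and RNA libraries shared a lysate. Values against DMSO came from a fit of all 18 libraries. DESeq2 1.42.0, other scalings, filters, blocks and left-out replicates were tried as alternatives. On simulated counts for 11469 genes, 100 genes were changed by 0.5 and 100 by 1 (log2). Of these, 67% and 94% were recovered, and 6.4% of calls were false. The simulation gave all genes the same spread and changed none of low coverage. In the data 49.5% of genes were called, so these rates are not those of the data.

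Named genes were the 12 largest called differences in each direction with mean log2 CPM of at least 4 and no overlap between drugs, up to 4 members per list with the smallest p, and 14 genes named in any case. Members and lists were chosen with earlier results of these data known. Efficiency differences of lists are described by counts and medians with no test of their own. Only the shares of reads taken by lists were compared, by the exact permutation test. Start sequences and loci are from RefSeq, build GRCm38.p6.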

Additional observations from a re-analysis of the deposited data

How the results depend on the processing

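Library totals in place of TMM factors had the largest effect on the counts: 5369 genes higher and 1254 lower in efficiency, 5176 higher and 1928 lower in footprints, and 1070 higher and 4043 lower in RNA. Of the 5724 efficiency calls, 4247 were kept there and 22 had the opposite sign, and 12 of 31 list medians changed sign. No other setting gave a call of opposite sign. Leaving out 1 replicate gave 2612 to 2780 genes higher and 2508 to 2562 lower in efficiency, 2739 to 2845 and 3034 to 3152 in footprints, and 1587 to 1736 and 2480 to 2719 in RNA. Without replicate 2 of rapamycin 2 list medians changed sign, and without replicate 3 of Rapalink-1, 1 did. With the replicate block by lysate 2929 genes were higher and 2679 lower, and with the replicate block by number 2959 and 2703. Libraries of the same number showed correlations of deviations from -0.145 to 0.139, with no sign that the numbers pair libraries. Efficiencies per replicate, and the block by lysate, join footprint and RNA libraries by number on the labels alone. DESeq2 gave 2733 higher and 2408 lower. Over 130 genes, 1935 of 1950 values kept direction and side of the threshold, and Mtor, Atf4 and Dnmt1 turned sign, at 0.289, 0.117 and 0.155, all under library totals; the cause was not tested. With 3 replicates per drug and assay, spread rests on few values, and at low counts (Rps2, Ulk1) differences are less certain.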

Other observations

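Genes outside the lists, picked after their values were seen, included some with differences as large as those of ribosomal proteins. Ahcy, which hydrolyses S-adenosylhomocysteine, had 197, 194 and 195 CPM of footprints with Rapalink-1 and 538, 572 and 539 CPM with rapamycin, and its efficiency was lower, at -2.01 ± 0.059. Its RNA was higher, by 0.52 ± 0.041. Cox7a2l, which helps assemble respiratory supercomplexes, was lower, at -2.09 ± 0.11, Pfdn5, a prefoldin subunit, at -1.85 ± 0.082, and Slc25a5, an ADP/ATP carrier, at -1.66 ± 0.056.

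Higher efficiency outside the lists was found for Ibtk, with 112, 107 and 125 CPM of footprints against 41.6, 33.2 and 40.6 CPM. Its efficiency differed by 1.82 ± 0.094, mostly through footprints (1.57 ± 0.069), and relative to DMSO it was 1.89 with Rapalink-1 and 0.07 with rapamycin. Prrc2c at 2.00 ± 0.074, the methyltransferase-family gene Kmt2e at 2.19 ± 0.12 and the ubiquitin ligase Huwe1 at 1.70 ± 0.065 had larger RNA parts (-1.20, -1.17 and -1.08). Among markers of other cell types, Itgam was lower, at -1.55 ± 0.11 with RNA at -0.04 ± 0.068, and Hbb-bs was higher by 1.72 ± 0.37 with few footprints. These are values only.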
